A study of Arabidopsis thaliana with 4 samples.

Results

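Alternative oxidase gives plant mitochondria a second way to pass electrons to oxygen. It takes them from the ubiquinone pool and bypasses the proton-pumping cytochrome pathway, which lowers the yield of ATP and limits the build-up of reactive oxygen. In Arabidopsis, AOX1A is the best-known reporter gene of retrograde signalling, by which disturbed mitochondria change the expression of nuclear genes. NAC transcription factors that are released from membranes, such as ANAC017 and ANAC013, are known activators of AOX1A. ANAC060, the factor mapped here, is another NAC protein with a known membrane-anchored form.

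The genes described are 7 loci of 27444 nuclear protein-coding genes: the alternative oxidase genes AOX1A, AOX1B, AOX1C, AOX1D and AOX2, the oxidative stress marker gene UPOX, and NDB2, which encodes an external alternative NAD(P)H dehydrogenase. All 7 locus identifiers matched the RefSeq gene table, which gives UPOX (AT2G21640) no symbol. They were chosen by name with earlier results of these peak lists known, so the numbers of peaks below are a description and were not tested. A gene was counted where any base of a deposited peak lay in the annotated gene or within 1 kb of it.

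Each peak list set 1 precipitate against 1 input. The glucose precipitate came from Columbia (Col-0) seedlings of the 35S:ANAC060-GFP/anac060 line, 10 d old, on medium with 6% glucose, and was made with anti-GFP antibody. Its input was DNA of wild-type Col-0 seedlings of the same treatment, without antibody. The no-glucose precipitate and its wild-type input came from seedlings of the same line, wild type and age on medium without glucose. The protocol also names 6% sorbitol without saying which plates held it, so whether the no-glucose plates were an osmotic control is not clear from the labels. Both precipitates therefore came from an anac060 mutant background that carried the fusion under the constitutive 35S promoter, while neither input carried the transgene. Whole seedlings were used, so a peak cannot be assigned to a tissue.

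With 1 library in each of the 4 groups there is no replicate error, no test, and no way to tell a treatment difference from a difference between libraries. The glucose list held 2859 peaks with scores of 30.02 to 3100, and the no-glucose list 4155 peaks with scores of 100.01 to 3100. The score is the authors' own value for each peak. Since the lists start at different scores, values are ranked within a list and are not read as a change between lists. Read depth is unknown. A peak at ANAC060 itself, the source of the transgene, scored 171.1 with glucose and 3100 without. The 3100 is the highest score of the no-glucose list, shared by 14 of its peaks. Neither input carried the transgene, and what gave the peaks at ANAC060 was not tested.

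Of the 7 genes, 4 had a peak in the glucose list, namely AOX1A, AOX1B, AOX2 and NDB2, against 18.1% of all nuclear protein-coding genes. In the no-glucose list 5 of the 7 had one, the same 4 and AOX1C, against 25.5% of all genes. The 4 genes with a peak in both lists compare with 13.9% of all genes. AOX1D and UPOX had no peak in either list. AOX1B and AOX1A are neighbours that share a peak in each list. In all, 3 distinct peaks accounted for the 4 genes in the glucose list, and 5 distinct peaks for the 5 genes in the no-glucose list. At a score of 100 or more, AOX1A and AOX1B alone had a glucose peak, 2 of 7 genes against 4.93% of all genes. Above the median score of each list the counts were 2 with glucose (against 9.91%) and 4 without (against 14%). By peak centre, a gene was counted where the centre of a peak lay in it or within 1 kb of it. AOX2 and NDB2 alone were then counted with glucose, 2 of 7 against 13.9%.

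**Figure D1:**
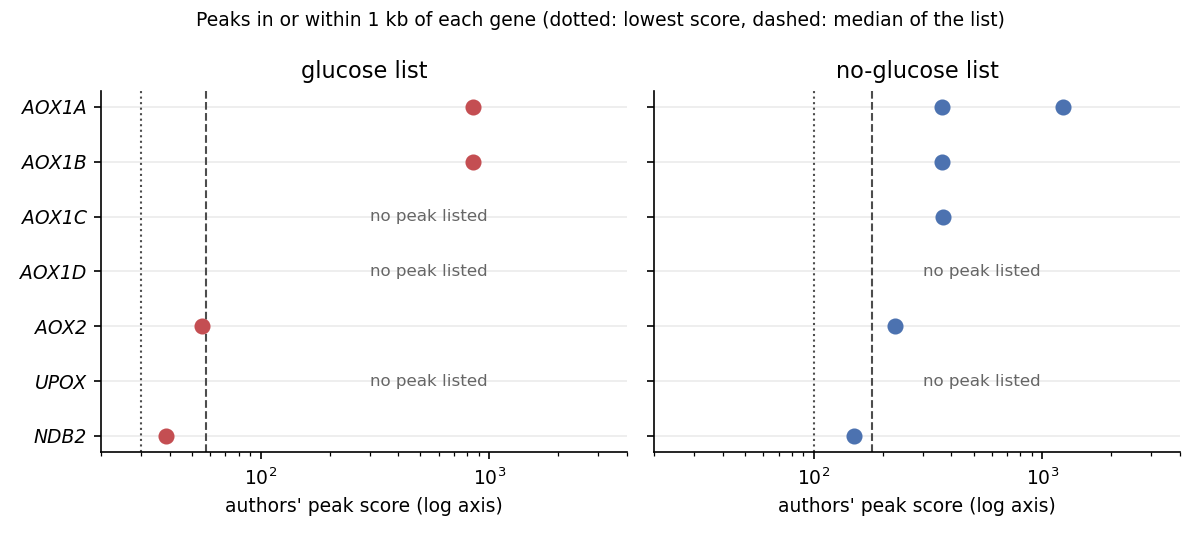
Authors' peak score (log axis) of each peak in or within 1 kb of the 7 genes, in the glucose list (left) and the no-glucose list (right); each point is a peak, the dotted line is the lowest score of the list and the dashed line its median. AOX1A has the highest score in both lists (845.0, tied with AOX1B through their shared peak, and 1230.51), NDB2 the lowest (38.34 and 149.4), and AOX1D and UPOX have none.

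AOX1A (AT3G22370, chromosome 3, 7906521 to 7908746, TAIR10) is the main stress-inducible alternative oxidase gene. In the glucose list it lay under a single peak at 7905897 to 7913670 with a score of 845.0, which was rank 21 of 2859 and above 99.3% of the list. In the no-glucose list it was reached by a peak at 7904972 to 7908067 with a score of 363.91 (rank 662 of 4155) and by a second at 7908096 to 7913632 with a score of 1230.51 (rank 52). The second peak scored above 98.7% of the list. In both lists AOX1A was the highest-ranking of the 7 genes, sharing its glucose peak with AOX1B.

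These peaks were not confined to AOX1A. The glucose peak was 7774 bp wide, a width that 0.245% of the glucose peaks reached, against a list median of 1673 bp. It covered the whole 2226 bp of AOX1A, but these made up 28.6% of the peak. The 4158 bp between AOX1A and the next gene took 53.5%, and 766 bp of that gene another 9.85%. The next gene is TIC (AT3G22380, 7912905 to 7919707), TIME FOR COFFEE, a regulator of the circadian clock that is also known to act in metabolic signalling.

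The higher no-glucose peak leaned further towards TIC. It was 5537 bp wide (median of the list 1784 bp), and 75.1% of it lay between AOX1A and TIC, 11.8% in AOX1A and 13.1% in TIC. Its centre was 2118 bp above the upper end of AOX1A and 2041 bp below the lower end of TIC, almost midway. The lower-scoring no-glucose peak was the one centred at AOX1A, 1.5 bp outside the lower end of the gene, and 50% of it lay in AOX1A. The centre of the glucose peak was 1037.5 bp above the upper end of AOX1A and 3121.5 bp from TIC. Where a peak counts only if its centre lies in the gene or within 1 kb, AOX1A therefore narrowly loses its glucose peak. Its no-glucose score is then 363.91 in place of 1230.51. Which of these genes the high-scoring peaks belong to cannot be told from the lists. The table used gives no strand, so the ends of a gene are named lower and upper by coordinate.

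**Figure D2:**
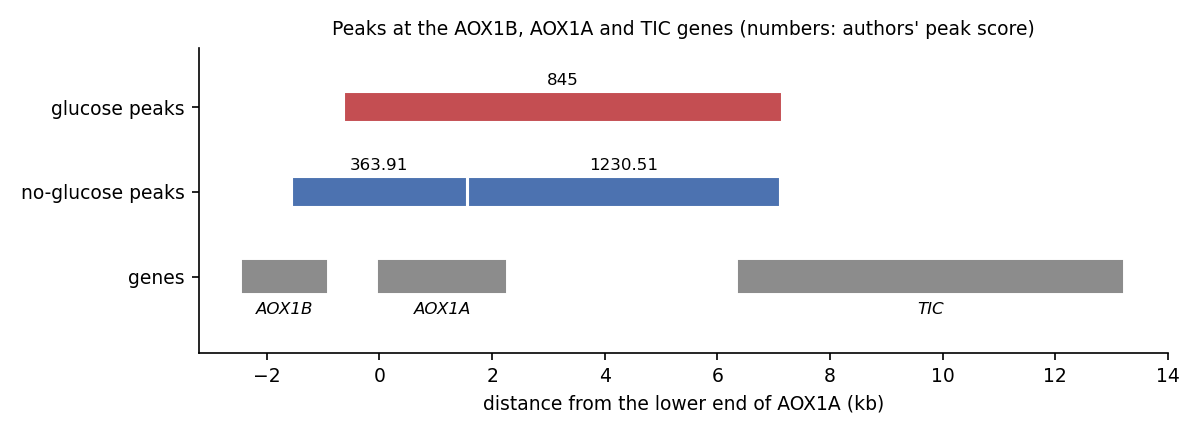
Map of the AOX1B, AOX1A and TIC genes (grey) with the glucose peak (red, top) and the no-glucose peaks (blue, middle); the horizontal axis is the distance in kb from the lower end of AOX1A, and the numbers are the authors' scores. The 845.0 glucose peak and the 1230.51 no-glucose peak both fill the 4158 bp between AOX1A and TIC and end within TIC.

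The glucose list has 1 peak over this region where the no-glucose list has 2, with upper ends that nearly met and lower ends that did not. The no-glucose peaks were 28 bp apart and together spanned 8661 bp. The upper ends of the glucose peak and of the higher no-glucose peak differed by 38 bp, and that no-glucose peak lay wholly in the glucose peak. The lower end of the glucose peak was 925 bp further up than that of the lower-scoring no-glucose peak. With peaks within 200 bp merged, both lists have 1 peak here.

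AOX1B (AT3G22360, chromosome 3, 7904097 to 7905576) is the neighbouring copy, 944 bp below AOX1A. It was counted in the glucose list through the same 845.0 peak, which ended 321 bp short of it and touched none of its bases. Of the genes counted, this was the one nearest to the 1 kb limit. In the no-glucose list the 363.91 peak covered 605 bp of it (40.9% of the gene), with its centre 943.5 bp above the gene. With the gene body alone counted, AOX1B drops out of the glucose list, leaving 3 of 7 genes against 14.3% of all genes.

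AOX1C (AT3G27620, chromosome 3, 10229045 to 10230707) was the gene listed in 1 treatment alone. It had no glucose peak, the nearest being 23256 bp away with a score of 98.87. Its no-glucose peak, at 10230101 to 10232370, scored 368.11, rank 643 of 4155. Of the 201 no-glucose peaks within 100 ranks of it, itself included, 153 (76.1%) overlapped a glucose peak, against 49.7% of the whole list. The absence of a glucose peak means a score under 30.02 or no call, not absence of binding. The 2270 bp peak took in the upper 607 bp of AOX1C, all 676 bp of SMR7 (AT3G27630), a SIAMESE-RELATED inhibitor of cyclin-dependent kinases, and 129 bp of AT3G27640. Its centre lay in SMR7, 528.5 bp above AOX1C.

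AOX2 (AT5G64210, chromosome 5, 25683770 to 25685731) belongs to the second alternative oxidase subfamily. Its glucose peak lay at 25685187 to 25686840 with a score of 55.3, rank 1510 of 2859. Its no-glucose peak lay at 25685191 to 25686826 with a score of 226.89, rank 1467 of 4155. The ends of these peaks differed by 4 and 14 bp and their centres by 5 bp. Of all 2151 overlapping pairs of a glucose and a no-glucose peak, 2.98% had centres as close, with a median distance of 167 bp. The NDB2 centres were 134.5 bp apart (43.8% of pairs as close), while those of the AOX1A glucose peak lay 1080.5 and 3264 bp from the no-glucose centres (90.8% and 99.3%). Both peaks spanned the 461 bp between AOX2 and AT5G64220, the calmodulin-binding transcription activator gene CAMTA2. The glucose peak held 545 bp of AOX2 and 648 bp of CAMTA2, and the no-glucose peak 541 and 634 bp.

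NDB2 (AT4G05020, chromosome 4, 2572427 to 2576599) encodes a dehydrogenase that feeds electrons from cytosolic NADH into the ubiquinone pool and is often induced together with AOX1A. Its peaks had the lowest scores of the set. The glucose peak, at 2571739 to 2573279, scored 38.34 (rank 2240, above 21.7% of the list). The no-glucose peak, at 2571535 to 2573214, scored 149.4 (rank 2648, above 36.3%). They overlapped by 1476 bp, and their centres lay 82 bp inside and 52.5 bp outside the lower end of NDB2. Both also reached AT4G05018, 218 bp away, with 30.5% of the glucose peak and 40.1% of the no-glucose peak.

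**Figure D3:**
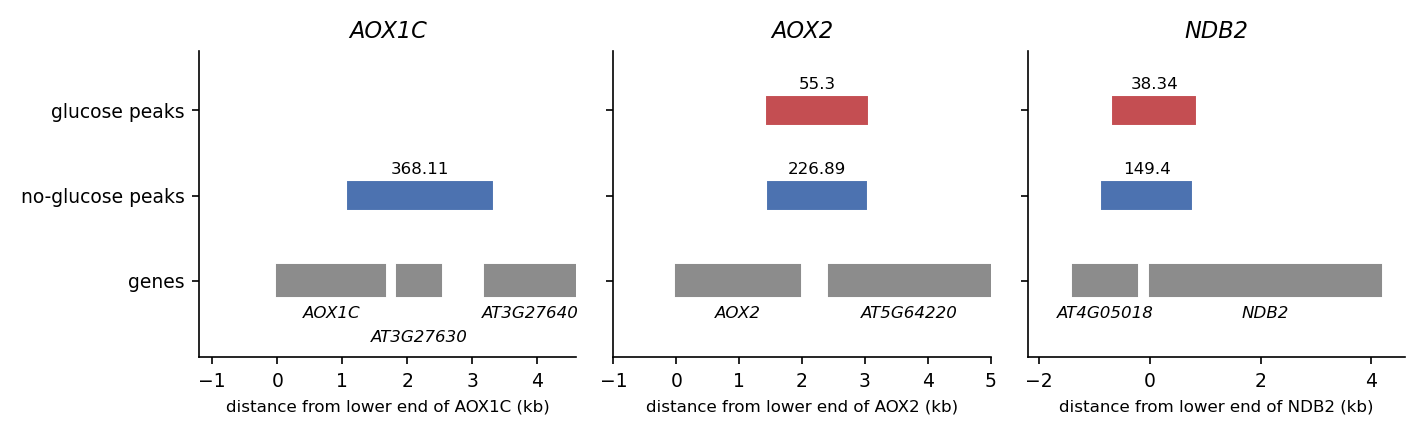
Maps of AOX1C, AOX2 and NDB2 with their neighbours (grey), glucose peaks (red, top) and no-glucose peaks (blue, middle); each horizontal axis is the distance in kb from the lower end of the named gene, and numbers are the authors' scores. Every peak shown extends into a neighbouring gene, and at AOX2 and NDB2 the peaks of the lists overlap by 1636 and 1476 bp.

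Each of the peaks at these genes reached a second gene. All 3 glucose peaks and all 5 no-glucose peaks reached at least 2 protein-coding genes within 1 kb, where 69.5% and 68.6% of all peaks of each list did. The peaks described were picked for reaching a gene, while those shares are over all peaks, whether or not they reach one. AOX1A and AOX1B are also neighbours, so this is not a like comparison. Distances from the peak centre to the nearer gene end ran from 82 to 4207.5 bp in the glucose list (median 660 bp over 4 pairs of a gene and a peak) and from 1.5 to 2118 bp in the no-glucose list (median 403 bp over 6). The medians over all pairs of a protein-coding gene and a peak were 478 bp (5472 pairs) and 470 bp (7772 pairs).

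AOX1D and UPOX differed in how far they lay from any peak. AOX1D (AT1G32350, chromosome 1, 11666886 to 11668690), another stress-inducible alternative oxidase gene, was 50013 bp from the nearest glucose peak and 54111 bp from the nearest no-glucose peak. As far or farther from a peak were 13.9% and 6.27% of all protein-coding genes. The nearest peak in each list belonged to RCD1, a regulator described below. UPOX (AT2G21640, chromosome 2, 9254378 to 9255743) was closer, 5468 bp from a glucose peak with a score of 52.02 and 5183 bp from a no-glucose peak with a score of 200.84. It was the nearest of the genes outside the 1 kb limit. Of all genes 65.2% and 54.5% lay as far.

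The running numbers of the peaks bear on these empty stretches. Numbers rise along the chromosomes in both lists and have no gaps in the glucose list, whereas the no-glucose list lacks 3137 of its numbers. Around UPOX the flanking no-glucose peaks are numbered 2206 and 2207, so no numbered peak was left out between them. Around AOX1D they are numbered 906 and 910, so 3 numbered peaks of unknown position and score are missing from that stretch.

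**Figure D4:**
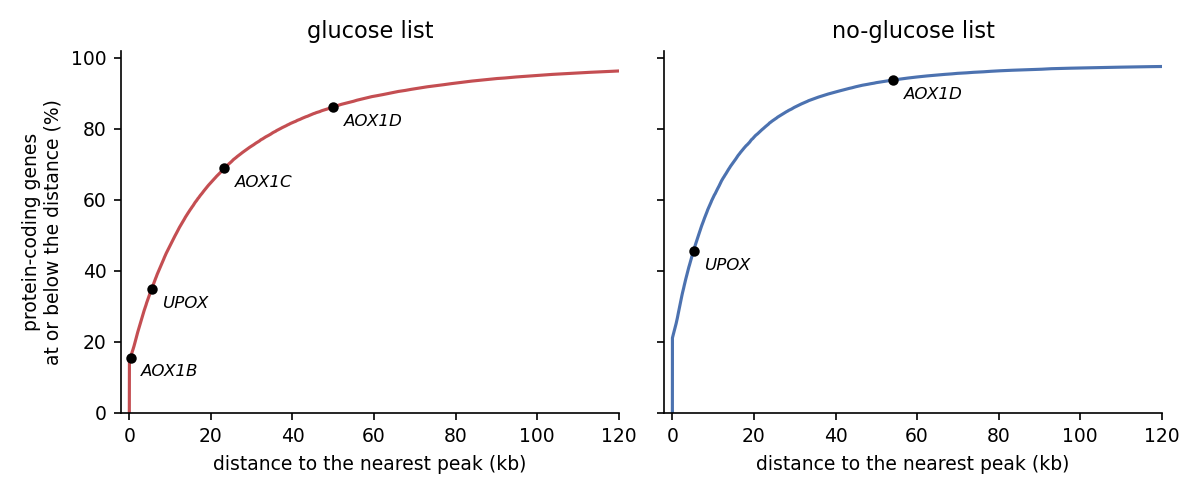
Share of the 27444 protein-coding genes (vertical axis, %) whose nearest peak lies at or below a given distance (horizontal axis, kb), in the glucose list (left) and the no-glucose list (right); black points mark those of the 7 genes that no peak touches. AOX1D lies 50013 and 54111 bp from a peak, far along both curves, and UPOX 5468 and 5183 bp.

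The genes most like AOX1A were taken as the 5 whose percentiles among all genes with a peak lay nearest to those of AOX1A over the 2 lists (97.81 with glucose, 97.34 without). TIC came first at a distance of 0, since the same peaks define it. AT2G24625 and the cellulose synthase-like gene ATCSLC08 followed through shared peaks of 842.5 with glucose and 1111.87 without, at 0.332 percentile points. The membrane-bound NAC gene NTL8 and its neighbour AT2G27310 were next, with 746.81 and 1309.71, at 0.374 points. The 5 genes stand for 3 places in the genome.

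The wider pathway was counted by the same rule over 48 genes in 4 lists, each gene by its highest peak. Among 10 other genes of alternative electron flow, 2 had a glucose peak and 3 a no-glucose peak, beside 18.1% and 25.5% of all genes. NDB1, a dehydrogenase related to NDB2, had the highest scores (303.84 and 659.91), from peaks 772 and 881 bp from the gene with centres 2518 and 2277 bp away. NDA2, an internal alternative dehydrogenase gene, was reached in the no-glucose list alone (465.97) from 908 bp. The uncoupling protein gene UCP1, named PUMP1 in the annotation, scored 33.53 and 106.25, near the lowest scores of the lists (30.02 and 100.01). Its glucose peak lay 15 bp outside the gene. The gene of the plastid terminal oxidase, IMMUTANS, a relative of alternative oxidase, was just outside the limit at 1323 and 1378 bp.

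Of 12 other genes known to be induced on mitochondrial dysfunction, 3 had a glucose peak and 3 a no-glucose peak. The shares of all genes were 18.1% and 25.5%. The auxin transporter gene ABCB4 scored 240.3 and 593.77, and OM66 (BCS1 in the annotation), which encodes an outer mitochondrial membrane protein, 47.92 and 110.13. The small heat shock protein gene HSP23.6-MITO was listed with glucose alone (48.66), and the glutathione transferase gene GSTU25 without glucose alone (110.66). The no-glucose list starts at 100.01, so it would not show a weaker peak at HSP23.6-MITO. Only ABCB4 and OM66 were in both lists.

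Of 12 genes of regulators that act on AOX1A, 2 had a glucose peak and 6 a no-glucose peak. Over all genes the shares were 18.1% and 25.5%. ANAC053, a membrane-bound NAC gene, scored 80.72 and 206.14, and RCD1, whose product binds and restrains ANAC013, 48.56 and 268.47. ANAC013 itself was listed without glucose alone at 188.95, as were WRKY15 (148.2), WRKY63 (139.37, ABO3 in the annotation) and WRKY40 (118.32). ANAC017, the main known activator, and ABI4, a known repressor, had no peak in either list; they are named here after their values were seen. The nearest peaks were 18495 and 17798 bp from ANAC017 and 18995 and 20307 bp from ABI4.

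The list of the cytochrome pathway and phosphorylating chain had 3 of 14 genes with a glucose peak and 6 of 14 with a no-glucose peak. Besides the cytochrome pathway, it holds genes of complex I, succinate dehydrogenase and ATP synthase. The succinate dehydrogenase gene SDH1-1 scored 46.68 and 253.67, but the 253.67 peak lay 989 bp from the gene, centred 2296.5 bp above it. The no-glucose peak that overlapped its glucose peak scored 126.69. AT3G15640 scored 221.88 and 605.3, from peaks centred 1276.5 and 1503.5 bp outside the gene. The cytochrome c gene CYTC-1 was listed with glucose alone (53.82), though a no-glucose peak scoring under 100.01 would not be listed. The ATP synthase gene ATP3 (214.38), AT5G08670 (167.6), AT5G08690 (138.14) and the complex I gene CI51 (127.59) were listed without glucose alone. Shares were 20%, 25%, 16.7% and 21.4% of the 4 lists with glucose, beside 18.1% of all genes. Without glucose they were 30%, 25%, 50% and 42.9%, beside 25.5%. At 10 to 14 genes a list, 1 gene moves a share by several points. The median of the highest scores of the genes with a peak was 168.685, 48.66, 64.64 and 53.82 with glucose (61.91 over all genes) and 465.97, 110.66, 168.575 and 190.99 without (192.5 over all genes).

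**Figure D5:**
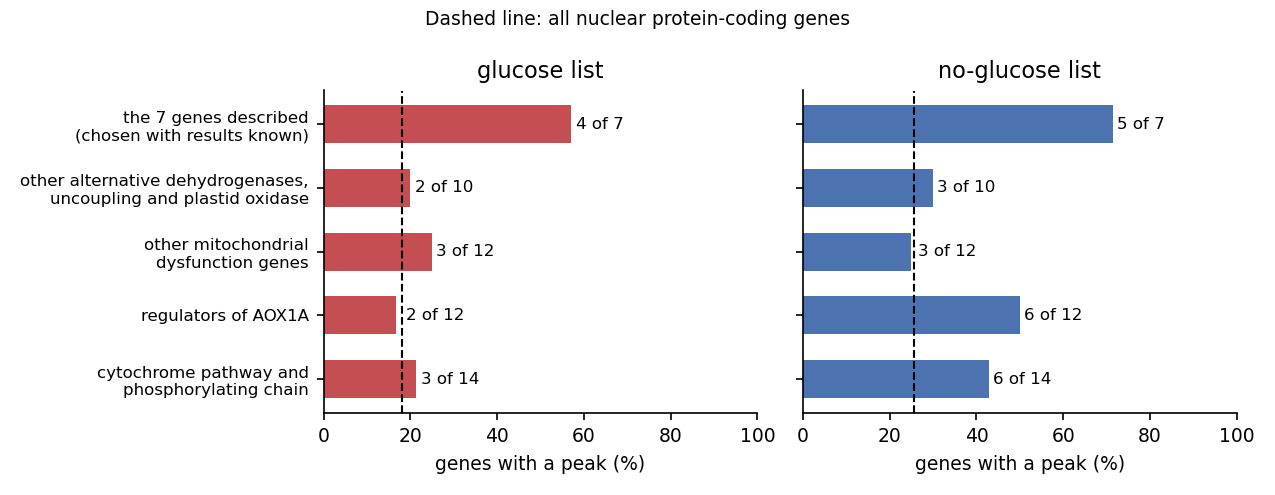
Share of genes with a peak in or within 1 kb of the gene (horizontal axis, %) for the 7 genes described and 4 pathway lists, in the glucose list (left) and the no-glucose list (right); the dashed line is the share of all nuclear protein-coding genes (18.1% and 25.5%). The bars of the 4 pathway lists lie between 16.7% and 25% with glucose and between 25% and 50% without.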

How the data were processed

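The deposited files are 2 peak lists from 4 libraries. The submitters' processing notes name FastQC, BWA 0.7.15-r1140 and the TAIR10 build. MACS called the peaks with its local background model off, per the file headers. For the glucose list these also record that the shift model was off and that p was set at 0.001. Which MACS release was run is not given in the sources used. Each score is the authors' value as deposited, and its range is like that of -10 times log10 of a p-value. With the local model off, peaks can also arise where copy number is uneven or chromatin open.

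Starts were turned from BED to 1-based coordinates, and genes came from the RefSeq table of TAIR10.1. Highest scores, ranks, overlaps and distances were computed with Python 3.11.15, numpy 2.4.6 and pandas 2.3.3, and the overlap step was tested on simulated data. Genes named are the 7 members, up to 6 per pathway list by score, the 5 most like AOX1A and neighbours under the same peaks. CYTC-1, IMMUTANS, ANAC017 and ABI4 fall outside this rule and were named after their values were seen. Members and lists were chosen with earlier results of these data known. No tests were run. Planned promoter motifs and sequences were not analysed here. The alternatives were other flanks, gene bodies alone, peak centres in or within 1 kb of the gene, score minimums, equal numbers of peaks and merged peaks.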

Additional observations from a re-analysis of the deposited data

How the results depend on the processing

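No paired analysis was possible because each group has 1 library. The 5 no-glucose members were counted under each of the 8 alternatives except peaks above the median score. There 4 remained, with NDB2 lost, against 14% of all genes. Under the others, the share of all genes with a no-glucose peak ran from 18.5% (equal numbers of peaks) to 31% (2 kb flanks). The 4 members counted with glucose, and the 4 in both lists, became 2 under each of the following alternatives. At a score of 100 or more these were AOX1A and AOX1B, against 4.93% of all genes with glucose and 4.54% in both lists. Above the median score they were the same pair, against 9.91% with glucose and 6.88% in both lists. By peak centre they were AOX2 and NDB2, against 13.9% with glucose and 9.83% in both lists. All genes with a glucose peak, 4977 as deposited, numbered 1352 at a score of 100 or more and 2720 above the median, and those with a no-glucose peak, 6988 as deposited, 3834 above the median. The highest no-glucose score of AOX1A was 363.91 by centre, and that of AOX1B 1230.51 with peaks within 200 bp merged. The share of all genes moved with the setting too. With glucose and without, it was 16.3% and 23.1% at 500 bp flanks, and 13.9% and 19.6% by centre. In gene bodies alone it was 14.3% and 20.9%, and with glucose at 2 kb 22.4%. The shares at the score minimums and at equal numbers of peaks are given above. With 500 bp flanks the other alternative electron flow genes, 2 with glucose and 3 without, numbered 1 and 1. By centre they numbered 1 and 1, and in gene bodies alone 0 and 1. With glucose they numbered 4 at 2 kb and 1 at either score minimum. The mitochondrial dysfunction genes, 3 and 3, numbered 5 with glucose at 2 kb, 1 with glucose at either score minimum, and 1 without glucose both above the median and at equal numbers of peaks. The regulators, 2 and 6, numbered 0 with glucose at 100 or more, and 1 and 3 above the median. The cytochrome pathway, 3 and 6, numbered 1 with glucose at either minimum and 3 without glucose above the median. The remaining 75 counts stayed within 1.5 times. Read depth is unknown and limits every statement on a missing peak.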

Other observations

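RCD1 and ABCB4 each had peaks towards different ends of the gene. At RCD1 (chromosome 1, 11611891 to 11617419) the glucose peak, at 11615043 to 11616873, was centred 1461 bp inside the upper end. The no-glucose peak, at 11611174 to 11612775, was centred 83.5 bp inside the lower end, and the pair did not overlap. RCD1 was the only one of the 8 pathway genes with a peak in both lists whose peaks shared no base. At ABCB4 the glucose list held a peak at each end, with scores of 44.81 and 240.3, and the no-glucose list a peak at the upper end alone (593.77). That peak overlapped the higher glucose peak by 3091 bp. The glucose peak of RCD1 scored 48.56, while the no-glucose list starts at a score of 100.01 and lacks 3137 of its numbers. A weaker no-glucose peak at the lower end of ABCB4 or towards the upper end of RCD1 would therefore not be listed. With 1 library per treatment these differences have no replicate check.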
